A study of Rattus norvegicus with 14 samples.

Results

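The corticosteroid receptors and 3 genes that corticosteroid hormones are known to induce were followed in glomeruli, the filtering tufts of the kidney, of Dahl salt-sensitive rats. The members were chosen by Ensembl gene ID and numbered 5. They were ENSRNOG00000014096 (Nr3c1), ENSRNOG00000034007 (Nr3c2), ENSRNOG00000011815 (Sgk1), ENSRNOG00000022523 (Fkbp5) and ENSRNOG00000056135 (Tsc22d3). Of these, 4 were analysed among the 12934 gene IDs of the count table, and Nr3c2 was not analysed here. The symbols come from the list of members: the count table gives IDs alone, and the reference table used here matched 0 of its IDs, so the pairing of ID and symbol was not checked against an annotation.

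All rats were males of the inbred strain SS/JrHsdMcwiCrl, in which a salt-rich diet raises blood pressure. The 7 high salt libraries came from rats fed 4% NaCl and the 7 normal salt libraries from rats fed 0.4% NaCl, in both cases for 21 days from 8 weeks of age. Glomeruli were sieved from the kidneys and frozen, and their RNA was read near the 3' end of each transcript (QuantSeq). Each library carries a sample number between 9 and 24, odd on high salt and even on normal salt, whose meaning the labels leave unstated. Nothing in them says that each library is a separate rat, so p-values measure the spread between libraries, which may be technical. Since the IDs carry no names, markers of podocytes, endothelium, mesangium or tubule could not be read and the labelled tissue was not checked. For the same reason the other genes of the corticosteroid pathway (steroid-converting enzymes, chaperones, further induced genes and sodium transport genes) could not be counted.

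Corticosteroids act through a pair of related nuclear receptors. The glucocorticoid receptor, encoded by Nr3c1, is held by heat shock chaperones in the cytoplasm until hormone binds, and then moves to the nucleus and regulates transcription at glucocorticoid response elements. The mineralocorticoid receptor, encoded by Nr3c2, binds aldosterone and glucocorticoids and is best known in the kidney for sodium reabsorption in the distal nephron. Sgk1 encodes a kinase that raises sodium transport, Fkbp5 a chaperone partner that lowers the hormone affinity of the glucocorticoid receptor, and Tsc22d3 the leucine zipper protein GILZ, which restrains inflammatory transcription factors.

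Library totals lay between 13797146 and 18151197 counts. The 10 most abundant IDs took between 30.8% and 64.9% of a library, the lowest share in high salt library 21 and the highest in high salt library 15. Levels are therefore given as CPM, the usual count relative to a library's total, with the totals scaled by trimmed mean of M-values (TMM), which corrects them for such composition. A 3' tag library is not scaled by transcript length, so levels describe each gene by itself and are not compared between genes.

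Nr3c1, the glucocorticoid receptor, was read in every library, with 580 to 1392 counts. On normal salt its level ran from 63.8 CPM (library 22) through a median of 72.8 to 88.9 CPM (library 10), with a mean of 72.9 ± 8.76 CPM (SD, n = 7). On high salt it ran from 53.9 CPM (library 21) through a median of 64.5 to 79.7 CPM (library 23), with a mean of 65.4 ± 10.0 CPM (SD, n = 7). The diets overlapped over most of their range. The receptor varied little over the 14 libraries, with a standard deviation of 0.21 in log2 CPM. Of the 8176 IDs with at least 5 CPM on average, 75.1% varied more, and their median standard deviation was 0.28.

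Sgk1, the kinase, had 8862 to 19501 counts per library. On normal salt it ran from 641 CPM (library 24) through a median of 742 to 1226 CPM (library 16), with a mean of 796 ± 197 CPM (SD, n = 7). On high salt it ran from 457 CPM (library 21) through a median of 885 to 1145 CPM (library 17), with a mean of 876.5 ± 256 CPM (SD, n = 7). High salt libraries thus reached both lower and nearly as high as normal salt ones, and the lowest of all was on high salt. Its standard deviation in log2 CPM was 0.39, and 24.6% of the IDs with at least 5 CPM varied more.

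Fkbp5, the chaperone partner of the receptor, had 528 to 3101 counts per library. On normal salt it ran from 28.7 CPM (library 24) through a median of 73.0 to 115 CPM (library 12), with a mean of 70.8 ± 28.8 CPM (SD, n = 7). On high salt it ran from 59.9 CPM (library 13) through a median of 78.4 to 193 CPM (library 9), with a mean of 95.2 ± 45.3 CPM (SD, n = 7). Library 9 stood apart, since the next highest high salt library held 105 CPM. From the lowest to the highest library the level of Fkbp5 changed 6.72-fold. Its standard deviation in log2 CPM was 0.63, and only 5.75% of the IDs with at least 5 CPM varied more.

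Tsc22d3, the gene of GILZ, had 1349 to 4219 counts per library. On normal salt it ran from 101 CPM (library 24) through a median of 147 to 226 CPM (library 16), with a mean of 152 ± 45.6 CPM (SD, n = 7). On high salt it ran from 101 CPM (library 21) through a median of 179 to 262 CPM (library 9), with a mean of 170 ± 52.2 CPM (SD, n = 7). The lowest library of each diet stood at about the same level, and the ranges overlapped nearly in full. Its standard deviation in log2 CPM was 0.43, and 19.3% of the IDs with at least 5 CPM varied more.

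**Figure D1:**
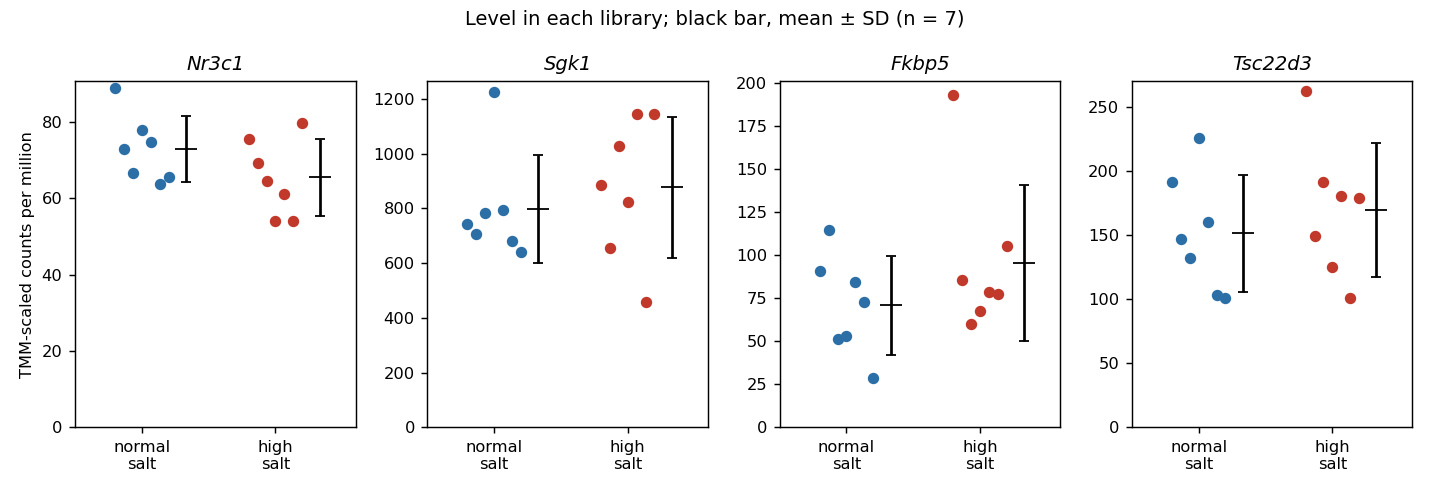
Level of each gene in TMM-scaled CPM on a linear axis from 0, one point per library in order of sample number within each diet, with the mean and SD (n = 7) as black bars. In all 4 genes the libraries of the 2 diets overlap; the highest Fkbp5 point is high salt library 9 at 193 CPM and the highest Sgk1 point is normal salt library 16 at 1226 CPM.

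Promoters of Sgk1 and Tsc22d3, whose levels correlated over the libraries, and of Fkbp5, whose r with Sgk1 was 0.09, are shown from RefSeq (build GRCr8), each covering 250 bases before to 50 after an annotated start. All 4 symbols matched the promoter table, with 9 windows. For Sgk1 the window is 1 of 3, chr1:24804782-24805081 on the minus strand. For Tsc22d3 it is 1 of 3, chrX:109009985-109010284 on the minus strand, and for Fkbp5 the single one, chr20:6543506-6543805 on the minus strand. Which start each 3' tag came from cannot be read from these data. Capitals mark TATAAA on the gene's strand, a motif and windows chosen after the sequences were seen.
Sgk1: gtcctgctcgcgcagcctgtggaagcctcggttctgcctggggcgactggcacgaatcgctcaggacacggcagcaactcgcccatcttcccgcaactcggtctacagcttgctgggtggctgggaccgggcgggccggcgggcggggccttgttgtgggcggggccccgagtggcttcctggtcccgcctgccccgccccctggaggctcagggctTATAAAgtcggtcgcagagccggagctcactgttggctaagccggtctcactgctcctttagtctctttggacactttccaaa
Tsc22d3: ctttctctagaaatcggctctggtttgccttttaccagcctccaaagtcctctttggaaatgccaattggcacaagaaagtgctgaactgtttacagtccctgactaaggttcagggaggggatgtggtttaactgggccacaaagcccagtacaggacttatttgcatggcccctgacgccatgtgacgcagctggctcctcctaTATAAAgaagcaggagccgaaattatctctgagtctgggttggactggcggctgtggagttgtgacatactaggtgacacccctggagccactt
Fkbp5: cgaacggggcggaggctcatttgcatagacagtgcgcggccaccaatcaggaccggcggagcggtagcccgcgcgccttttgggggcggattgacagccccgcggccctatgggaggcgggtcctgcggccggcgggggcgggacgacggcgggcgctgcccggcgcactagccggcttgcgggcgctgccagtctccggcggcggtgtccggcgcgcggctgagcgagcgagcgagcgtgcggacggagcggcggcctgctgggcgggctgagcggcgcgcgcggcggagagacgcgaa
TATAAA began 33 bases before the start of this Sgk1 window and 44 before that of Tsc22d3, and a further Sgk1 window held it 55 bases before its start. In all it was in 2 of the 3 Sgk1 windows, 1 of the 3 Tsc22d3 windows and no Fkbp5 or Nr3c1 window. Of all 33469 windows, 8.8% held it on the gene's strand. The printed Fkbp5 window was 77.0% G and C, that of Sgk1 66.0% and that of Tsc22d3 50.7%, against a median of 51.7% over all windows. The windows not printed were 40.7% and 51.7% for Sgk1, and 52.0% and 73.0% for Tsc22d3. Those of Nr3c1, which also correlated with Tsc22d3, were 66.0% and 79.0%. Whether any promoter feature goes with the correlations was not tested. The palindromic glucocorticoid response element, AGAACA and its reverse complement around 3 free bases, was in 0 of the 9 windows on either strand and in 0.0149% of all windows. The looser form, GNACA and its reverse complement with the same gap, was in 0 of 9 and in 0.439% of all. AGAACA alone, which is part of the full element, was in 0 of 9 and in 20.7% of all. These letters are thus not in these 300 bases, which says nothing of binding elsewhere.

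The comparison of the diets asks whether the receptor or its induced genes differed between rats on high and on normal salt. None of the 4 genes passed the test. On high salt the estimate for the receptor Nr3c1 was a little lower, and those of the 3 induced genes a little higher, each with a 95% interval that held 0. By edgeR's quasi-likelihood test 0 of the 4 members were called at an adjusted p below 0.05, against 0% of all 11158 IDs tested, and each of the 4 had an adjusted p of 0.9997. At an unadjusted p below 0.05 the members also counted 0, against 202 of all IDs (1.81%). DESeq2, limma voom and limma-trend called 0 members as well, with 343, 562 and 265 IDs at an unadjusted p below 0.05.

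For Nr3c1 the log2 fold change of high over normal salt was -0.15 ± 0.11 (SE), with a 95% interval of -0.39 to 0.08 (edgeR, unadjusted p = 0.187). This interval spans folds of 0.762 to 1.06, so a change of the receptor transcript by 1.5-fold in either direction lay outside it. Of the 7 high salt libraries, 2 exceeded the median of the normal salt group. For Sgk1, Fkbp5 and Tsc22d3 the like count was 5 each. In 1 of the 7 pairs of consecutive sample numbers the high salt library held the higher Nr3c1 level. These counts were not tested or set against all IDs.

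For Sgk1 the log2 fold change was 0.14 ± 0.20 (SE), with a 95% interval of -0.27 to 0.55, or folds of 0.827 to 1.47 (edgeR, unadjusted p = 0.486). The high salt library was the higher in 4 of 7 pairs of consecutive numbers. The estimate was 0.28 without normal salt library 16 and 0.26 without high salt library 21, and it was 0.06 without high salt library 17 or 23. The difference of mean log2 CPM was 0.11 with TMM and -0.00068 with library totals in place of TMM.

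For Fkbp5 the log2 fold change was 0.43 ± 0.29 (SE), the largest estimate of the 4, with a 95% interval of -0.18 to 1.04, or folds of 0.883 to 2.05 (edgeR, unadjusted p = 0.156). The high salt library was the higher in 5 of 7 pairs of consecutive numbers. Without high salt library 9 the estimate was 0.16 (unadjusted p = 0.527), and without normal salt library 24 it was 0.29. Among the 11158 IDs, 6.49% had a larger absolute estimate. The interval thus held no change as well as a rise of 2.05-fold.

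For Tsc22d3 the log2 fold change was 0.16 ± 0.21 (SE), with a 95% interval of -0.28 to 0.61, or folds of 0.823 to 1.53 (edgeR, unadjusted p = 0.446). The high salt library was the higher in 5 of 7 pairs. Without high salt library 9, which held the highest level of this gene, the estimate was 0.03.

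Exact permutation tests on the log2 CPM of single libraries (two-sided) gave p = 0.152 for Nr3c1, 0.626 for Sgk1, 0.217 for Fkbp5 and 0.504 for Tsc22d3, none below 0.05. Library totals in place of TMM lowered the difference of means in each gene. It went from -0.16 to -0.27 for Nr3c1, 0.11 to -0.00068 for Sgk1, 0.44 to 0.33 for Fkbp5 and 0.16 to 0.05 for Tsc22d3. The authors' deposited table gives log2 folds of -0.15 for Nr3c1, 0.14 for Sgk1, 0.43 for Fkbp5 and 0.17 for Tsc22d3. Within sample numbers 9 to 16 the edgeR log2 estimates were -0.22 for Nr3c1, -0.029 for Sgk1, 0.39 for Fkbp5 and 0.06 for Tsc22d3. Within numbers 17 to 24 they were -0.07, 0.38, 0.48 and 0.33 in the same order. No member passed the test in either range of numbers. No diet effect that changed with the number passed either (edgeR interaction term, unadjusted p between 0.396 and 0.66 for the 4 genes).

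**Figure D2:**
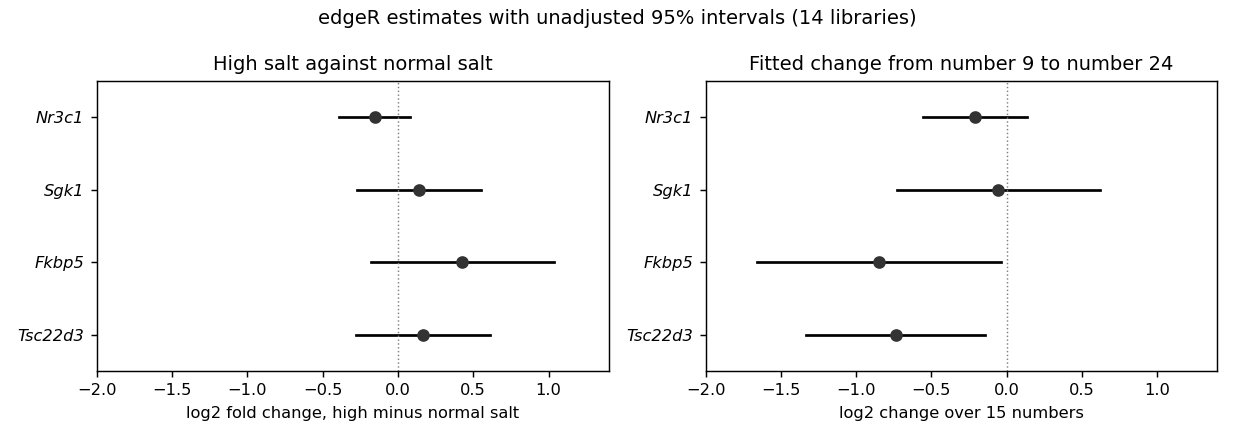
edgeR estimates (points) with unadjusted 95% intervals (lines) for the 4 genes on the log2 scale: left, high salt minus normal salt; right, the fitted change from sample number 9 to 24 in the model that also held diet. All 4 intervals hold 0 on the left; on the right those of Fkbp5 and Tsc22d3 lie below 0, with adjusted p of 0.139 and 0.0853.

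Levels were next set against the sample number in a model that also held diet. All 4 estimates of the change with the number were negative, and none passed the test. By edgeR's quasi-likelihood test 0 of 4 members were called at an adjusted p below 0.05, where 12.7% of all IDs were called. At an unadjusted p below 0.05 there were 2 of 4 members, Tsc22d3 and Fkbp5, against 32.0% of all IDs.

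For Tsc22d3 the fitted log2 change from number 9 to number 24 was -0.74 ± 0.28 (SE), with a 95% interval of -1.33 to -0.15 (edgeR, unadjusted p = 0.0178, adjusted p = 0.0853), a fold of 0.60. Its mean level was 188 CPM in the 4 libraries numbered 9 to 12 and 121 CPM in the 4 numbered 21 to 24. The exception among the later libraries was high salt library 23, at 179 CPM against 101 to 103 CPM in the other 3. For Fkbp5 the fitted change was -0.85 ± 0.38 (SE), with an interval of -1.66 to -0.04 (edgeR, unadjusted p = 0.041, adjusted p = 0.139). Its mean was 121 CPM in numbers 9 to 12 and 71.0 CPM in numbers 21 to 24. The level did not fall steadily between them. Libraries 13, 14, 15 and 16 held Fkbp5 at 59.9, 51.1, 67.8 and 53.1 CPM. Libraries 21, 22 and 23 were higher, at 77.2, 73.0 and 105 CPM, and library 24 was the lowest of all at 28.7 CPM. The change of Fkbp5 was -0.43 without high salt library 9, -0.58 without normal salt library 24 and -1.21 without high salt library 23.

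The receptor and the kinase had smaller estimates. For Nr3c1 the fitted change was -0.21 ± 0.16 (SE), with an interval of -0.56 to 0.13 (edgeR, unadjusted p = 0.214, adjusted p = 0.390). For Sgk1 it was -0.06 ± 0.32 (SE), with an interval of -0.73 to 0.62 (edgeR, unadjusted p = 0.865, adjusted p = 0.922), and its sign turned when library 21, 22 or 24 was left out. The calls differed without high salt library 23, where the fitted change was -1.04 for Tsc22d3 (adjusted p = 0.0268), -0.44 for Nr3c1 (adjusted p = 0.0456), -1.21 for Fkbp5 (adjusted p = 0.0554) and -0.35 for Sgk1 (adjusted p = 0.510), all by edgeR. That makes 2 of 4 members called, where 18.8% of all IDs were called without that library. It was the only 1 of the 14 omissions that called a member. Without high salt library 9 the interval of Tsc22d3 was -1.22 to 0.09, and without normal salt library 24 it was -1.32 to 0.03. In both of these fits 0 of 4 members had an unadjusted p below 0.05 (edgeR), against 27.6% and 31.1% of all IDs.

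Within the diets, each of 7 libraries, the direction of the Tsc22d3 and Fkbp5 estimates was shared. From number 9 to 24 the log2 change of Tsc22d3 was -0.65 on high salt and -0.90 on normal salt, and that of Fkbp5 was -0.65 and -1.17. For Nr3c1 the values were -0.10 and -0.38, and for Sgk1 0.08 and -0.26. No ID was called within a single diet by edgeR. An unadjusted p below 0.05 was held by 1266 IDs on high salt (12.6%) and 2334 on normal salt (23.0%). Among the members the counts were 0 of 4 on high salt and 2 of 4 on normal salt. Time, handling and any other quantity that follows the number cannot be told apart.

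**Figure D3:**
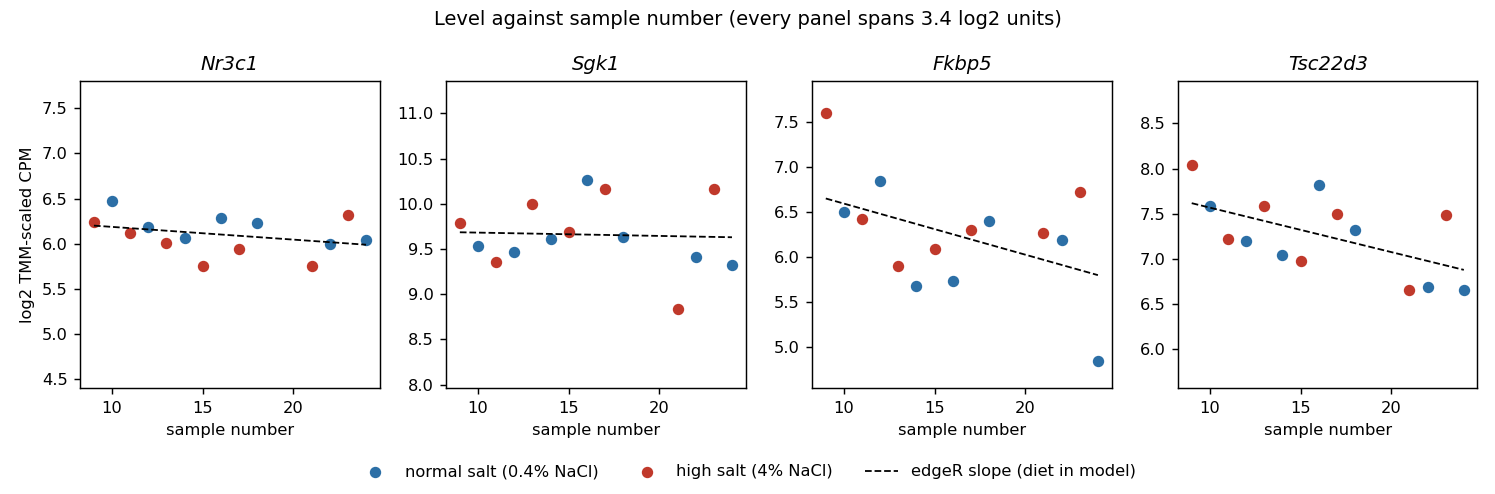
Log2 TMM-scaled CPM of each gene against the sample number, one point per library coloured by diet, with the edgeR slope as a dashed line; every panel spans the same number of log2 units. The lines of Tsc22d3 and Fkbp5 change by -0.74 and -0.85 from number 9 to 24, with high salt library 23 well above the line in both; the line of Sgk1 changes by -0.06.

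The induced genes were then compared with each other and with the receptor, library by library, in the 6 pairs that the 4 genes form. Sgk1 and Tsc22d3 correlated past the threshold, and so did Tsc22d3 and the receptor Nr3c1, both with a call that single libraries could end. By Pearson r the former pair kept its call in 13 of the 14 omissions of a single library, and the latter in 3. Fkbp5 and Sgk1 had a correlation near 0. Whether one correlation differed from another was not tested.

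Sgk1 and Tsc22d3 correlated over the 14 libraries at r = 0.73 (Pearson; permutation p = 0.00311, adjusted p = 0.0187 by Benjamini-Hochberg over 6 pairs) and rho = 0.74 (Spearman; permutation p = 0.00318, adjusted p = 0.0191). Normal salt library 16 was the highest of all 14 for Sgk1 and the next to highest for Tsc22d3. High salt library 21 was the lowest for both, and normal salt library 24 the next to lowest for both. Without libraries 16 and 21, which lay farthest from the median of Sgk1, r was 0.59 (n = 12, permutation p = 0.0422, adjusted p = 0.218). That adjustment ran over 6 pairs that each leave out their own 2 libraries. The call at the adjusted threshold was lost there, with fewer libraries. Whether it rests on libraries 16 and 21 was not tested. Without library 21 alone r was 0.66 (adjusted p = 0.0871). By Spearman the call was lost without library 16, 21 or 22 (permutation test, adjusted p = 0.0543, 0.0824 and 0.0614).

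Within the high salt libraries (n = 7) r of these 2 genes was 0.70 (exact permutation p = 0.0788, adjusted p = 0.179), and within the normal salt libraries (n = 7) it was 0.79 (exact permutation p = 0.00933, adjusted p = 0.0435). With diet and number removed by regression r was 0.82 (permutation p = 0.00017, adjusted p = 0.00102). That permutation made no allowance for the terms fitted, so its p-values are likely too small. Within numbers 9 to 16 it was 0.58 (n = 8, exact permutation p = 0.138, adjusted p = 0.414), and within numbers 17 to 24 it was 0.90 (n = 6, exact permutation p = 0.00139, adjusted p = 0.00833). In log2 CPM the ratio of Sgk1 to Tsc22d3 had a standard deviation of 0.31 over the libraries, less than either gene alone (0.39 and 0.43).

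Tsc22d3 and Nr3c1 correlated at r = 0.63 (permutation p = 0.0152, adjusted p = 0.0456) and rho = 0.66 (permutation p = 0.0121, adjusted p = 0.0364). This pair was near the threshold, since 11 of the 14 omissions of a single library took its adjusted p above 0.05, up to 0.108 without high salt library 21. Without libraries 9 and 21, which lay farthest from the median of Tsc22d3, r was 0.54 (n = 12, permutation p = 0.0726, adjusted p = 0.218 over 6 pairs that each leave out their own 2 libraries). Within the high salt libraries (n = 7) r was 0.755 (exact permutation p = 0.0488, adjusted p = 0.179), and within the normal salt libraries (n = 7) 0.86 (exact permutation p = 0.0145, adjusted p = 0.0435). With diet and number removed it was 0.75 (permutation p = 0.0011, adjusted p = 0.0033, again with no allowance for the terms fitted).

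The other 4 pairs did not pass. Tsc22d3 and Fkbp5 had r = 0.52 and rho = 0.39 (permutation p = 0.056 and 0.172, adjusted p = 0.112 and 0.258). Without high salt library 9, the highest for both genes, r was 0.30, and with diet and number removed it was 0.29. Sgk1 and Fkbp5 had r = 0.09 and rho = 0.05 (permutation p = 0.763 and 0.867, adjusted p = 0.763 and 0.867). Normal salt library 16 shows the divergence, with the highest Sgk1 level of the 14 libraries and the third lowest of Fkbp5. Nr3c1 had r = 0.36 with Sgk1 (permutation p = 0.21, adjusted p = 0.301) and r = 0.33 with Fkbp5 (permutation p = 0.251, adjusted p = 0.301), with rho of 0.31 and 0.46 (adjusted p = 0.346 and 0.203). Without high salt library 21, the lowest for both genes, r of Nr3c1 with Sgk1 was 0.096, and it was 0.0092 within numbers 9 to 16 and 0.63 within numbers 17 to 24.

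**Figure D4:**
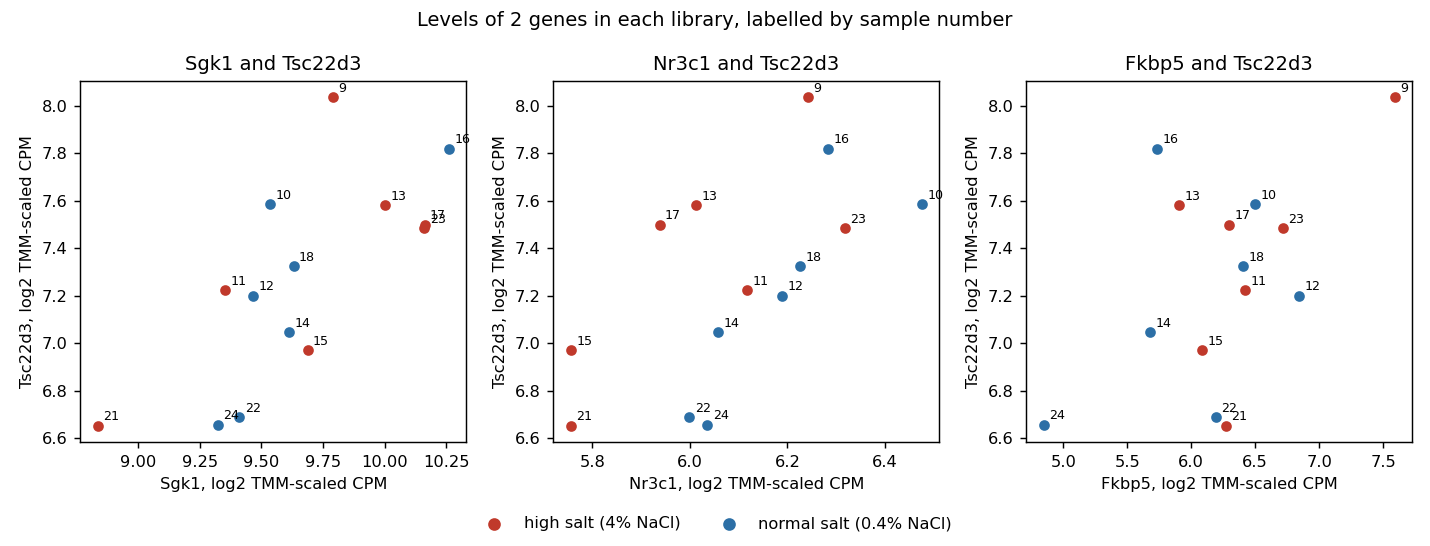
Log2 TMM-scaled CPM of Tsc22d3 (vertical axis) against Sgk1, Nr3c1 and Fkbp5 (horizontal axes), one point per library, labelled by sample number and coloured by diet. Tsc22d3 rises with Sgk1 (r = 0.73) and Nr3c1 (r = 0.63); in the Fkbp5 panel (r = 0.52) library 9 at the upper right and library 24 at the lower left lie apart.

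Many IDs correlated with each other in these libraries, and the pairs were read against all of them. The median r of Tsc22d3 with the other 11157 IDs was -0.0163, and the upper decile began at r = 0.544. Of these IDs, 2.98% had a higher r with Tsc22d3 than Sgk1 did, 5.82% a higher r than Nr3c1 and 11.4% a higher r than Fkbp5. Seen from Sgk1, 3.58% of IDs had a higher r than Tsc22d3, and 38.9% a higher r than Fkbp5. Seen from Fkbp5, whose upper decile began at r = 0.376, 3.21% of IDs had a higher r than Tsc22d3, and 38.4% a higher r than Sgk1. The place of the Tsc22d3 and Fkbp5 pair thus depended on the gene it was seen from. Sgk1 thus stood in the upper part of the range with Tsc22d3, but 332 other IDs had a higher r.

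**Figure D5:**
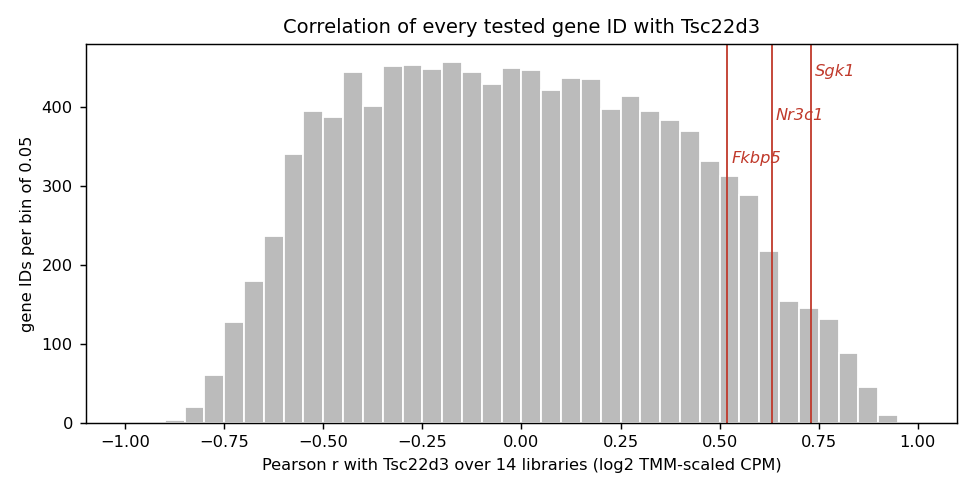
Number of gene IDs (vertical axis) by their Pearson r with Tsc22d3 over 14 libraries (horizontal axis, bins of 0.05), with the other 3 genes as red lines. Sgk1 stands at 0.73, Nr3c1 at 0.63 and Fkbp5 at 0.52, on the upper side of a broad distribution centred near 0.

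The mean of the standardised levels of the 3 induced genes was used to find IDs of like pattern among 8172 IDs with at least 5 CPM. The closest was ENSRNOG00000011222 (rho = 0.94 over 14 libraries), which ran from 132 CPM in library 21 to 289 CPM in library 9. Next was ENSRNOG00000009535 (rho = 0.92), from 12.4 CPM in library 21 to 61.8 CPM in library 16. The most opposed were ENSRNOG00000003515 (rho = -0.93) and ENSRNOG00000002724 (rho = -0.87). Neither the names nor the roles of these 4 IDs are given by the sources used here.

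Library depth and composition were set beside the 4 genes in 8 relations. The largest over all 14 libraries was that of Sgk1 with the share of the 10 most abundant IDs, at r = 0.49 and rho = 0.43 (permutation p = 0.0716 and 0.126, adjusted p = 0.573 and 0.940), and at r = 0.39 without libraries 15 and 21. Tsc22d3 had r = 0.17 with that share. Fkbp5 had r = -0.33 and rho = -0.29 with the total counts (permutation p = 0.249 and 0.318, adjusted p = 0.695 and 0.940), and r = -0.64 without libraries 11 and 23 (n = 12, permutation p = 0.0200, not adjusted). No relation over all 14 libraries passed. The part of composition in the Sgk1 levels was not tested. In sieved glomeruli, less RNA of a gene per cell and fewer cells that express it cannot be told apart.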

How the data were processed

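The authors deposited raw counts per Ensembl gene ID, and a normalized signal that equals the counts divided by 1 factor per library, with the diet means, a signed fold score and its log2 (per the file headers and the values). Per the submitters' processing notes, R 3.4.3 and DESeq2 1.18.1 were used and GRCm38, a mouse build, is named, although the IDs are of rat. Which aligner and counter were used, and whether molecular identifiers were collapsed, is not given in the sources used here.

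Counts were tested by robust quasi-likelihood fits (edgeR 4.0.16, R 4.3.3) with TMM factors, filterByExpr by diet and Benjamini-Hochberg adjustment over all IDs kept. The filter removed 1776 of 12934 IDs and kept 11158, all 4 members included. The trend added the sample number to diet. Log2 CPM used a prior count of 2. Correlations used 100000 permutations, or all orders at n of 8 or fewer, adjusted over 6 pairs, where 10 were planned with Nr3c2. Standard errors came from the F statistic. Alternatives included DESeq2 1.42.0 and limma 3.58.1 (voom on the counts, and limma-trend on the log2 of normalized values that the authors deposited, with 1 added). The code was tested on simulated data.

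The named genes are the members, plus the 2 IDs most and the 2 least like the induced genes by Spearman rho. Planned lists of pathway and cell type genes could not be applied, since no ID carried a symbol. Members, lists and tests were chosen with earlier results of these data known. The interaction term, the number ranges and diet removal for correlations, the exact tests on other scales and without single libraries, and the promoter search were added after seeing the data. No library was left out.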

Additional observations from a re-analysis of the deposited data

Results flagged for a closer look

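The highest and the lowest library of each gene and diet were compared with the nearest of the others, relative to the range of the 7 libraries. On the linear CPM scale a library stood far from the rest in 2 of 8 groups. A chance rate of about 1 in 20 groups holds for normally distributed values and independent groups. Here the genes were read in the same libraries, and log2 CPM was not compared in this way. The 2 flags are therefore not weighed against that rate. Normal salt library 16 held Sgk1 at 1226 CPM, and the next highest normal salt library 792 CPM. Tsc22d3 was also highest of the normal salt libraries there, at 226 CPM. High salt library 9 held Fkbp5 at 192.7 CPM, and the next highest high salt library 105 CPM. Tsc22d3 too was highest in library 9, at 262 CPM, while Sgk1 there was at rank 5 of the 14 libraries, 885 CPM.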

How the results depend on the processing

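No member was called for diet under any of the 12 other fits or without any single library. The diets share no sample number, so the only paired fit was in blocks of consecutive numbers, which called 0 members and 0 IDs and changed no call. Signs of the diet estimates held except for Sgk1, at -0.029 in numbers 9 to 16 and at -0.00068 with library totals in the single-value comparison. Left-out libraries moved the log2 estimates over -0.21 to -0.10 (Nr3c1), 0.06 to 0.28 (Sgk1), 0.16 to 0.59 (Fkbp5) and 0.03 to 0.29 (Tsc22d3). The single-value differences moved over -0.21 to -0.11, 0.03 to 0.25, 0.24 to 0.58 and 0.05 to 0.28. For the number, the change moved over -0.44 to -0.12, -0.35 to 0.15, -1.21 to -0.43 and -1.04 to -0.57. The sign for Sgk1 turned on high salt alone (0.084) and without libraries 21 (0.15), 22 (0.02) and 24 (0.09).

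The IDs called for the number were 1418, 2167 with DESeq2, 0 within either diet (with 7 libraries fitted), and 451 (without normal salt library 22) to 2118 without single libraries. They were 513 without library 10, 762 without 12, 547 without 9 and 926 without 21.

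Sgk1 and Tsc22d3 lost the call on high salt alone (r = 0.70) and in numbers 9 to 16 (r = 0.58), with r of 0.66 to 0.80 without single libraries. Tsc22d3 and Nr3c1 lost it on high salt alone (r = 0.755) and in numbers 9 to 16 (r = 0.62) and 17 to 24 (r = 0.59), with r of 0.54 to 0.69 without single libraries. With library totals this pair kept the call by Pearson r but lost it by Spearman (rho = 0.45, permutation p = 0.112, adjusted p = 0.224). Tsc22d3 and Fkbp5 passed with library totals (r = 0.61, adjusted p = 0.0443) and without normal salt library 16 (r = 0.67, adjusted p = 0.0371), with r of 0.30 to 0.67 over the omissions. By Spearman that pair passed in neither setting (rho = 0.40 and 0.56, permutation test, adjusted p = 0.234 and 0.0752). The sign of Sgk1 and Fkbp5 turned with diet and number removed (r = -0.014), on normal salt alone (-0.025), in numbers 9 to 16 (-0.35) and without library 24 (-0.090, in a range up to 0.22). The settings on a single diet, in a range of numbers or without a library held fewer libraries. Those with library totals and with diet and number removed kept all 14. The cause of these changes was not tested. Mean levels on library totals stayed within 1 SD of the TMM values. Each member had at least 528 counts in every library. Whether depth bears on these results was not tested.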

Other observations

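In log2 CPM the ratio of Sgk1 to Fkbp5 had a standard deviation of 0.71 over the 14 libraries, and that of Tsc22d3 to Fkbp5 0.55, compared with 0.31 for Sgk1 to Tsc22d3. Fkbp5 alone had a standard deviation of 0.63, above that of its ratio with Tsc22d3 and below that of its ratio with Sgk1. High salt library 13 held Sgk1 at 1026 CPM and Tsc22d3 at 191 CPM, each at rank 4 of 14, but Fkbp5 at 59.9 CPM, rank 11 of 14. Normal salt library 12 held the next to highest Fkbp5 level (115 CPM), with Sgk1 (707 CPM) at rank 10 and Tsc22d3 (147 CPM) at rank 9. Normal salt library 10 held the highest level of the receptor Nr3c1 (88.9 CPM), with Tsc22d3 at rank 3, Fkbp5 at rank 4 and Sgk1 at rank 9 of the 14 libraries. These values were picked after they were seen and carry no test.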
